A study of Mus musculus with 9 samples.

Results

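Forkhead (Fox) transcription factors were followed through 9 arrays of mouse brain RNA. The family was taken as the genes whose symbol on the array's annotation is Fox, a letter and a number, Foxq1 and Foxj1 apart, which gave 35 of the 18194 genes that the array names alone, on 79 probe sets. The samples fall into 3 groups of 3 arrays, which the labels call biological replicates. Embryonic fragments are pieces of small brain vessels from NMRI embryos (embryonic day 18.5), and rest of brain is the tissue of such brains without these pieces. Adult fragments are the same kind of vessel piece from mice of a mixed C57/SV129 background aged 1 year, 1 female and 2 males. No sex is given for the embryos, no genetic alteration or treatment for any group, and nothing on how fragments were isolated or whether embryos were pooled. Age, strain and the RNA kit (micro for embryonic, mini for adult tissue) changed together, so their parts in a difference between adult and embryonic arrays cannot be told apart. For rest of brain replicate 3 the title and the description disagree on the embryonic day, and its group was taken from the title.

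All forkhead proteins bind DNA through a winged-helix domain, and letters of the alphabet mark subfamilies with related domains. FoxC and FoxF factors act mainly in mesenchyme and vessel walls, where Foxf2 and Foxc1 are needed for brain pericytes and for an intact blood-brain barrier. FoxO factors are held in the cytoplasm by Akt when growth factors signal and enter the nucleus when this signal fades, FoxP factors shape neurons and lymphocytes, and FoxM1 drives genes of mitosis.

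Levels are log2 intensities as GCRMA, which removes background and puts arrays on one scale, returned them, and a value under 4 counts as background here. Of the 35 genes, 20 reached 4 on at least 3 arrays and were tested, Foxa1 reached it on 1 array, and 14 lay under 4 on all arrays and count as not detected. The array medians were 3.58 to 3.67 over all probe sets. The fractions carried the markers of their labels: Cldn5, the claudin of brain endothelium, was at 14.94 to 15.05 in embryonic and 14.97 to 15.10 in adult fragments against 6.85 to 8.39 in rest of brain, and the neuronal gene Elavl3 was at 4.43 to 6.04 and 2.96 to 3.51 against 12.48 to 12.77. Other cells came along with the vessels. Each of 12 tested microglia and macrophage genes was higher in embryonic fragments than in rest of brain, and Ttr, the leading transcript of choroid plexus, was at 15.69 or more on every array.

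The promoter windows of 4 forkhead genes that were higher in fragments of both ages than in rest of brain are shown here. Among genes with a window, these had the largest such differences, and no window was found for Foxf1 or Foxs1. Each window runs from 250 bases before to 50 after the RefSeq start on GRCm38.p6, 5′ to 3′ on the gene's strand, and capitals mark GC boxes (GGGCGG) and CCAAT boxes (CCAAT), each on both strands.
Foxf2, chr13:31625566-31625865, plus strand: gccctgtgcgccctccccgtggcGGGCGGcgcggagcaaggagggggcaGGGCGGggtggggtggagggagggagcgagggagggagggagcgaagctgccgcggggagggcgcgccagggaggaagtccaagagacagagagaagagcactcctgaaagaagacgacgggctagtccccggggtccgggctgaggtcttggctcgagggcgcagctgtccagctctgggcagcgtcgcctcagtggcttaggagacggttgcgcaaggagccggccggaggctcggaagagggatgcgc
Foxc1, chr13:31806396-31806695, plus strand: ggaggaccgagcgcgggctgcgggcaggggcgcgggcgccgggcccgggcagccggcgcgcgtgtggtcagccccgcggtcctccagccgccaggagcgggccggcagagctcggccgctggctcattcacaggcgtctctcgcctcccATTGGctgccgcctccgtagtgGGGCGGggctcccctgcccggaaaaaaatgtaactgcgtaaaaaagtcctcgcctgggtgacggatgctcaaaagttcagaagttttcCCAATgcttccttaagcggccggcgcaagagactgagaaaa
Foxl2, chr9:98955357-98955656, plus strand: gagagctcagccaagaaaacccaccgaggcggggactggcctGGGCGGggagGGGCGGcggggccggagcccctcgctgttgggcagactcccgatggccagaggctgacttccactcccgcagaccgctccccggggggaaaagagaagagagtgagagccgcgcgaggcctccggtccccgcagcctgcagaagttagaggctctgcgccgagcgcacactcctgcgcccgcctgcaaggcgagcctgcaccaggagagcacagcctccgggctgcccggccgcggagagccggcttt
Foxo1, chr3:52268087-52268386, plus strand: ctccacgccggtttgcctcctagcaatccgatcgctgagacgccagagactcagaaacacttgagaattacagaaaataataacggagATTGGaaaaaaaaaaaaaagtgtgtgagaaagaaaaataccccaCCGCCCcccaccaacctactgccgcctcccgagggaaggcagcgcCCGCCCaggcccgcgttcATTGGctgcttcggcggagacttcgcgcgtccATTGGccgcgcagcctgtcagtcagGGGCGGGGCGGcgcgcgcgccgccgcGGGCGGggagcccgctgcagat
These windows held 27, 32, 27 and 31 CpG dinucleotides for Foxf2, Foxc1, Foxl2 and Foxo1, against a median of 7 over all 32851 windows of that length. A GC box lay in each of the 4 and in 21 of the 29 windows found for 24 of the 35 forkhead genes, against 35.7% of all windows, and GC boxes overlapped each other once, in Foxo1. CCAAT was in 13 of the 29 against 37.4% of all windows, TATAAA in 3 against 13.6%, and the forkhead core TGTTTAC in 1, that of Foxa1, against 3.65%. The 14 windows of tested forkhead genes had a median of 31.5 CpG and the 14 of genes not detected a median of 12. Foxf2 and Foxc1 are next to each other on chromosome 13, with Foxq1 on the other side of Foxf2, and Foxf1, Foxc2 and Foxl1 lie together on chromosome 8, with only Mthfsd among the protein-coding genes between Foxf1 and Foxc2.

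**Figure D1:**
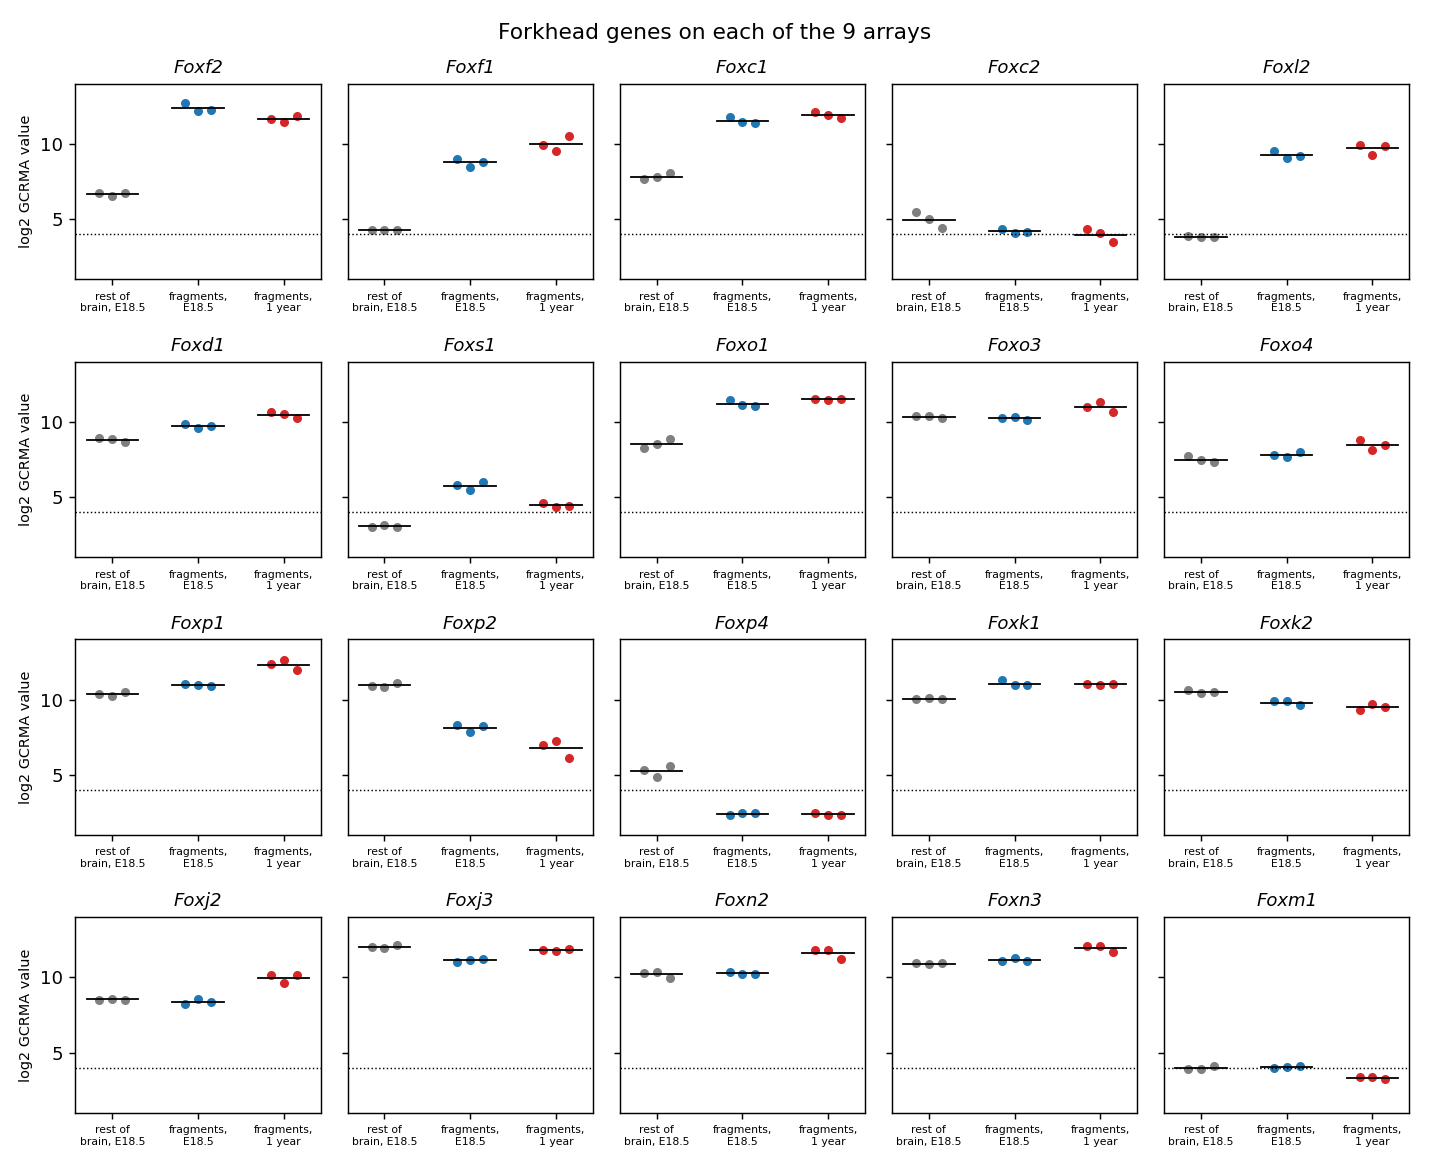
Log2 GCRMA value of each tested forkhead gene (1 panel each) on the 9 arrays, by group, with E18.5 for embryonic day 18.5; points are arrays, black lines are group means over n = 3, and the dotted line is the background value of 4. Foxf2, Foxf1, Foxc1, Foxl2 and Foxo1 are high on the 6 fragment arrays and low on the 3 of rest of brain, while Foxp2 and Foxp4 show the opposite order.

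The first comparison sets vessel pieces against the remaining tissue at one age and in one strain, and asks which forkhead transcripts accompany the vessels. Of 20 tested forkhead genes, 9 were higher in fragments (45.0%) and 5 lower (25.0%), against 28.9% higher and 37.2% lower (66.1% in either direction) among all 12009 genes tested (limma, adjusted p under 0.05). Their median log2 difference was 0.26, against -0.10 over all tested genes. At least 2-fold differences were found for 7 genes upwards and 2 downwards, with 19.3% and 23.7% of all genes past that line. In RNA of bulk tissue, fewer cells of a type and less RNA per cell cannot be told apart.

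Between adult and embryonic fragments 9 forkhead genes were higher in adults (45.0%) and 4 lower, against 27.4% and 29.7% of all genes (57.1% in either direction), with a median difference of 0.40 against -0.02. The higher genes were Foxd1, Foxf1, Foxj2, Foxj3, Foxn2, Foxn3, Foxo3, Foxo4 and Foxp1, and the lower ones Foxf2, Foxm1, Foxp2 and Foxs1. Sizes were smaller here, with 4 higher and 2 lower by at least 2-fold (15.7% and 15.3% of all genes). Here and below, "with age" is short for adult against embryonic fragments, between which strain and RNA kit changed too. Adult fragments and rest of brain differ in age, strain and RNA kit as well as fraction. In adult fragments 14 forkhead genes were higher and 5 lower than in rest of brain (70.0% and 25.0%), against 33.1% and 42.9% of all genes (76.0% in either direction). Their median difference was 1.21 against -0.17, and 11 higher and 3 lower ones reached 2-fold (23.6% and 29.2% of all genes). Among higher genes at 4 or more on every rest of brain array, Foxf1 had the largest difference, at 5.72 ± 0.24 (52.9-fold). Its rest of brain level of 4.24 to 4.26 was barely above background, so this fold depends on values near the cutoff. Foxf2 (32.0-fold) came next, before Foxc1 at 4.08 ± 0.16, Foxo1 at 2.97 ± 0.17, Foxp1 at 1.97 ± 0.17 and Foxd1 at 1.67 ± 0.14. Foxp2 was lowest, at -4.20 ± 0.28, and Foxk2 and Foxc2 stood at -1.06 ± 0.14 and -0.99 ± 0.29. Choroid plexus and ependymal markers came up with age in 8 of 9 cases, with a summed level over 10 genes of 61.8 to 74.7 in embryonic and 90.8 to 92.4 in adult fragments (Ccdc153 under 4 in both, Kl in embryonic ones), and their part in the age differences was not tested. The 3 comparisons share arrays and are not independent.

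**Figure D2:**
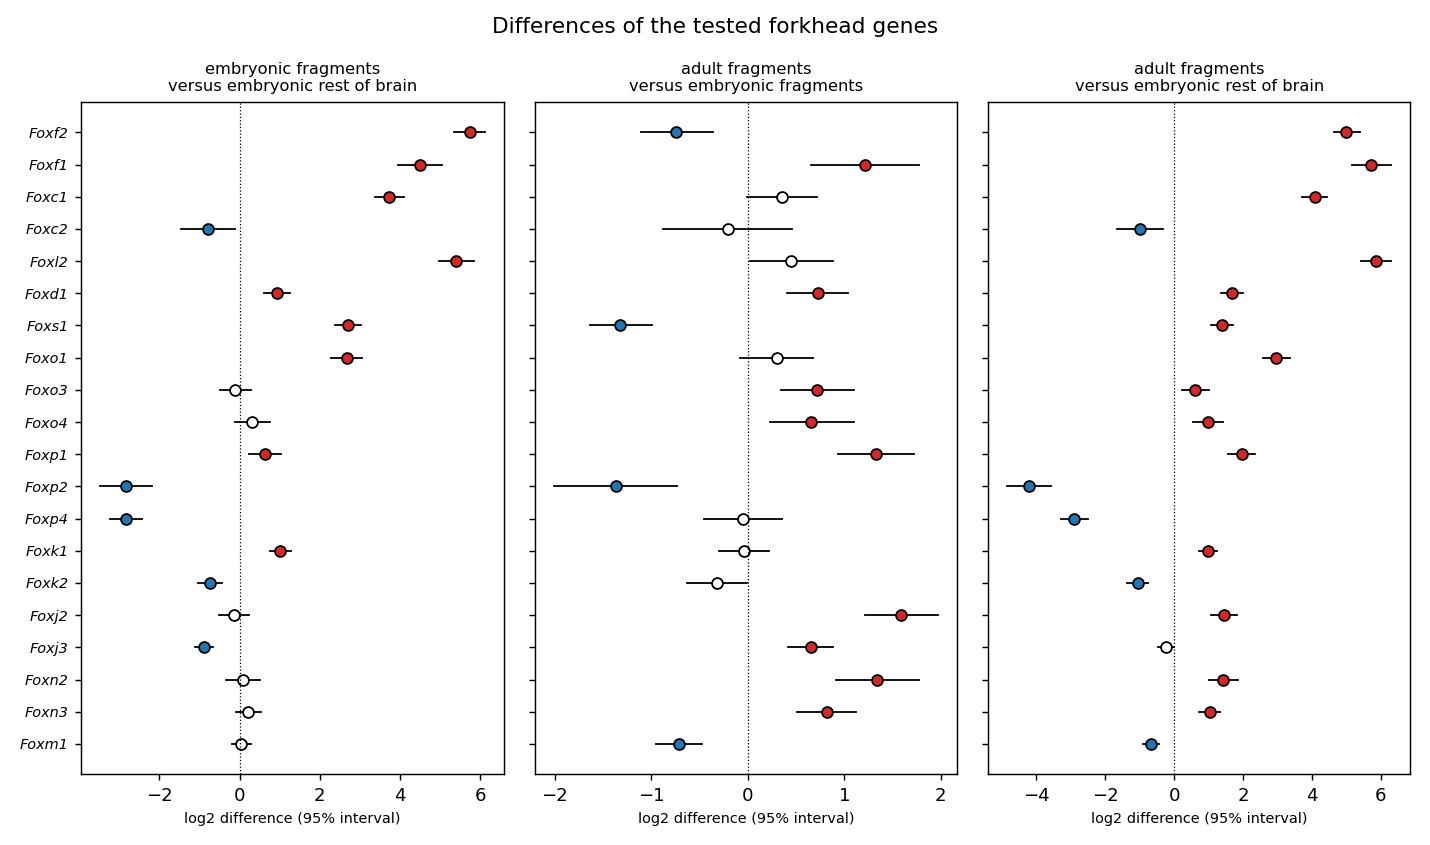
Log2 difference of each tested forkhead gene in the 3 comparisons (x axis, scaled separately per panel), with its 95% interval from the fit; red points were higher and blue points lower at an adjusted p under 0.05, and white points were not called. Foxf2 is the first row, with 5.74 in embryonic fragments over rest of brain and -0.74 in adult over embryonic fragments.

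The FoxF pair was far higher in fragments of both ages than in embryonic rest of brain, and moved in opposite directions between the ages. No adult rest of brain was among the arrays. Foxf2, a factor of brain pericytes, read 12.70, 12.21 and 12.24 in embryonic fragments, 6.70, 6.54 and 6.70 in rest of brain and 11.63, 11.45 and 11.86 in adult fragments. All 6 fragment arrays lay above rest of brain, and the 2 ages did not overlap. In embryonic fragments it was 53.3-fold higher than in rest of brain (log2 difference 5.74 ± 0.16 SE, limma adjusted p = 7.86e-09), and in adult fragments it fell by 0.74 (SE 0.16, adjusted p = 0.00465). Foxf1, a factor of lung and gut mesenchyme and of endothelium, read 9.01, 8.48 and 8.80 in embryonic fragments, 4.26, 4.24 and 4.25 in rest of brain and 9.93, 9.50 and 10.50 in adult fragments. Rest of brain was barely above background here, and the groups did not overlap. The difference was 4.51 ± 0.24 (adjusted p = 3.65e-07), and adults were higher again by 1.21 ± 0.24 (2.32-fold, adjusted p = 0.00255). Each gene has another probe set at background on all arrays, and the mean over both lowered the 2 embryonic differences to 2.82 for Foxf2 and 2.30 for Foxf1.

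Markers of mural cells stand beside the FoxF values. Pdgfrb, the receptor that recruits pericytes, was at 13.75 ± 0.18 in embryonic and 13.97 ± 0.14 in adult fragments (SD, n = 3), and Kcnj8, a potassium channel subunit of pericytes, at 12.13 ± 0.24 and 11.10 ± 0.25. The 14 pericyte markers had a summed level of 145.1 to 150.6 in embryonic and 146.9 to 148.5 in adult fragments, and 4 of 12 tested were higher and 3 lower in adults. The pericyte marker Anpep lay under 4 in every group, and Ndufa4l2 did so in rest of brain and adult fragments. Smooth muscle markers rose with age in 8 of 9 cases and fell in 1, with a summed level of 67.9 to 70.7 in embryonic and 92.5 to 95.8 in adult fragments, and Acta2, smooth muscle actin, at 12.18 ± 0.41 and 15.10 ± 0.08. Cnn1 and Lmod1 were under 4 on every embryonic array. What part these cells had in the forkhead values was not tested.

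FoxC members split. Foxc1, which acts in pericytes, meninges and endothelium, read 11.77, 11.45 and 11.41 in embryonic fragments, 7.65, 7.76 and 8.03 in rest of brain and 12.08, 11.91 and 11.70 in adult fragments. Fragments of either age were far above rest of brain, while the ages overlapped. The embryonic difference was 3.73 ± 0.16 (13.3-fold, adjusted p = 8.27e-08). Between the ages it was 0.35 (95% interval -0.01 to 0.72, adjusted p = 0.0871), a difference that passed without embryonic fragments replicate 1 or adult fragments replicate 3 and with 3 other settings (adjusted p = 0.00458 to 0.0469). A second probe set of Foxc1 was called higher in adults, at 0.75 ± 0.13.

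Foxc2, a factor of lymphatic and arterial development, was dim and went the other way. It read 4.35, 4.05 and 4.10 in embryonic fragments, 5.46, 4.97 and 4.41 in rest of brain and 4.32, 4.09 and 3.47 in adult fragments. Rest of brain was above embryonic fragments by a narrow margin, with 1 adult array at background. Foxc2 fell by 0.78 in embryonic fragments against rest of brain (SE 0.29, adjusted p = 0.0417). The call was lost without any 1 of the embryonic fragment arrays, without rest of brain replicate 1 or 2, without adult fragments replicate 2, or with no filter on low values (adjusted p = 0.0545 to 0.145), so Foxc2 is near the threshold. Foxl1, its neighbour and a factor of gut mesenchyme, was not detected.

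Foxl2, best known from the granulosa cells of the ovary, was among the forkhead genes with the widest contrast. It read 9.50, 9.04 and 9.17 in embryonic fragments, 3.83, 3.82 and 3.82 in rest of brain and 9.89, 9.28 and 9.88 in adult fragments. Rest of brain lay at background on all 3 arrays, and every fragment array was well above it. The fold was at least 37.7 in embryonic and at least 51.4 in adult fragments over rest of brain (adjusted p = 2.54e-08 and 1.14e-08). Adults exceeded embryos by 0.45 (interval 0.02 to 0.88, adjusted p = 0.0719), with overlapping arrays. That difference passed without embryonic fragments replicate 1 or adult fragments replicate 2 and under a second quantile step, loess across arrays or weights per array (adjusted p = 0.00722 to 0.0377). A second probe set of Foxl2 was at background on all arrays.

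Foxd1 and Foxs1, both known from stromal and perivascular cells, were higher in fragments and parted with age. Foxd1 read 9.87, 9.60 and 9.70 in embryonic fragments, 8.88, 8.82 and 8.65 in rest of brain and 10.61, 10.52 and 10.21 in adult fragments. Its 3 groups formed separate steps. It rose by 0.94 ± 0.14 from rest of brain to embryonic fragments (adjusted p = 3.03e-04) and was higher by 0.73 ± 0.14 in adults (adjusted p = 0.00205). Foxs1 read 5.78, 5.48 and 5.96 in embryonic fragments, 2.99, 3.15 and 2.99 in rest of brain and 4.56, 4.35 and 4.37 in adult fragments. It was at background in rest of brain and dim in adults. The embryonic fold over rest of brain was at least 3.35 (adjusted p = 3.03e-07), and in adult fragments Foxs1 fell by 1.32 from the embryonic level (SE 0.14, adjusted p = 7.18e-05). Of 12 fibroblast and meningeal markers, 10 were lower in embryonic fragments and 1 higher, with a summed level of 99.0 to 104.9 against 124.4 to 125.7 in rest of brain, and Crabp2 alone was under 4 on all fragment arrays. Their part was not tested.

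Of the 3 FoxO genes, as read by their representative probe sets, only Foxo1 was called between embryonic fragments and rest of brain. Foxo1, which restrains growth of endothelial cells, read 11.44, 11.12 and 11.04 in embryonic fragments, 8.24, 8.53 and 8.82 in rest of brain and 11.52, 11.47 and 11.50 in adult fragments. Fragments of both ages were far above rest of brain, and adult arrays lay just over the embryonic ones. The embryonic difference was 2.67 ± 0.17 (6.36-fold, adjusted p = 9.45e-07). The ages differed by 0.30 (interval -0.08 to 0.68, adjusted p = 0.157), and the mean over its 4 probe sets turned this to -0.05. The representative probe set of Foxo1 is of a type whose probes can be shared with other transcripts, but 2 further probe sets gave 2.46 and 2.74 in embryonic fragments over rest of brain.

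Foxo3 and Foxo4, targets of the same kinases, changed with age. Foxo3 read 10.23, 10.33 and 10.13 in embryonic fragments, 10.38, 10.38 and 10.25 in rest of brain and 10.94, 11.30 and 10.62 in adult fragments. The embryonic groups overlapped and adults were above both. Its difference was -0.11 between embryonic fragments and rest of brain (interval -0.49 to 0.28, adjusted p = 0.604), and adults were higher than embryonic fragments by 0.72 ± 0.17 (adjusted p = 0.00569). A second, dimmer probe set of Foxo3 was lower in embryonic fragments than in rest of brain (-0.54, adjusted p = 0.0361) and higher in adults by 1.02 ± 0.19. Foxo4 read 7.78, 7.64 and 7.98 in embryonic fragments, 7.73, 7.43 and 7.29 in rest of brain and 8.78, 8.14 and 8.47 in adult fragments. Again only adults stood apart, by 0.66 ± 0.19 over embryonic fragments (adjusted p = 0.0158), a call lost without embryonic fragments replicate 2 or adult fragments replicate 1 (adjusted p = 0.0508 to 0.0562). Between the embryonic groups Foxo4 differed by 0.31 (interval -0.12 to 0.75, adjusted p = 0.177).

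FoxP genes lay on both sides. Foxp1, a factor of neurons, heart and lymphocytes, read 11.06, 10.99 and 10.93 in embryonic fragments, 10.35, 10.20 and 10.51 in rest of brain and 12.39, 12.62 and 11.95 in adult fragments. The 3 groups did not overlap. It was higher by 0.64 ± 0.17 in embryonic fragments than in rest of brain (adjusted p = 0.0102) and by 1.33 ± 0.17 in adults than in embryonic fragments (2.51-fold, adjusted p = 2.35e-04). Foxp2, known for its part in speech circuits, read 8.33, 7.84 and 8.22 in embryonic fragments, 10.92, 10.83 and 11.13 in rest of brain and 6.95, 7.24 and 6.09 in adult fragments. Here rest of brain was highest and adult fragments lowest. Foxp2 fell by 2.83 from rest of brain to embryonic fragments (SE 0.28, 7.12-fold, adjusted p = 2.14e-05) and by a further 1.37 to adult ones (adjusted p = 0.00293).

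Foxp4 read 5.34, 4.84 and 5.58 in rest of brain and 2.32 to 2.47 over the 6 fragment arrays, all of them at background. It was at least 2.39-fold lower in fragments of either age (adjusted p = 9.31e-07 in embryonic and 6.47e-07 in adult ones). Foxp4 passed the filter only through rest of brain, so lower in fragments was the only call open to it. Foxp3, the factor of regulatory T cells, was not detected, and Cd3e, a chain of the T cell receptor complex, lay at 2.09 to 2.11 on all arrays. Like Foxp2 and Foxp4, all 15 tested neuronal markers were lower in embryonic fragments than in rest of brain. Between adult and embryonic fragments 9 of them were lower and 2 higher (60.0% and 13.3%, against 29.7% and 27.4% of all genes), while Foxp4 was at background at both ages. The summed level of neuronal markers was 182.5 to 185.6 in rest of brain, 91.2 to 106.4 in embryonic and 64.0 to 69.1 in adult fragments. The neuronal gene Slc17a7 was under 4 on all arrays of rest of brain. Nefm, Slc17a7 and Gria1 were so in embryonic fragments, and 10 of 16 neuronal genes in adult ones. Their part in the FoxP values was not tested.

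FoxK factors, which restrain autophagy and promote glycolysis, split between the members. Foxk1 read 11.28, 10.95 and 10.95 in embryonic fragments, 10.04, 10.07 and 10.02 in rest of brain and 11.02, 10.98 and 11.06 in adult fragments. Fragments were above rest of brain without overlap, by 1.02 ± 0.11 (2.03-fold, adjusted p = 4.99e-05) in embryos, while the ages overlapped (-0.04, interval -0.30 to 0.22, adjusted p = 0.824). Foxk2 read 9.87, 9.87 and 9.65 in embryonic fragments, 10.66, 10.42 and 10.51 in rest of brain and 9.28, 9.68 and 9.48 in adult fragments. It was lower in embryonic fragments than in rest of brain (-0.73 ± 0.14, adjusted p = 0.00118), and of 3 further probe sets, 2 were lower by more (-1.22 and -1.62) and 1 was not called (0.53, adjusted p = 0.0726). With age its difference was -0.32 (adjusted p = 0.0709), a call that passed without adult fragments replicate 2 (adjusted p = 0.0307) or with the mean over its probe sets (-0.48, adjusted p = 0.00908). Of the 3 further Foxk2 probe sets, 1 was called lower with age (-1.15 ± 0.21, adjusted p = 0.00152).

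The broadly expressed genes Foxj2, Foxj3, Foxn2 and Foxn3 were all called higher in adult than in embryonic fragments, and of them Foxj3 alone was called between the embryonic groups. Foxj2 read 8.22, 8.56 and 8.37 in embryonic fragments, 8.51, 8.56 and 8.51 in rest of brain and 10.17, 9.61 and 10.15 in adult fragments. Embryonic groups overlapped (-0.14, interval -0.52 to 0.24, adjusted p = 0.486), and adults were 3.01-fold above embryonic fragments (1.59 ± 0.17, adjusted p = 6.46e-05). Foxj3, needed in male germ cells, read 11.05, 11.18 and 11.23 in embryonic fragments, 12.05, 11.94 and 12.13 in rest of brain and 11.80, 11.77 and 11.86 in adult fragments. Embryonic fragments were the low group, lower than rest of brain by 0.88 on the log2 scale (adjusted p = 5.54e-05), and adults exceeded them by 0.65 ± 0.10 (adjusted p = 6.07e-04). The mean over the 3 probe sets of Foxj3, of which 2 are near background, left the age difference at 0.11 (adjusted p = 0.338).

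Foxn2 read 10.38, 10.25 and 10.22 in embryonic fragments, 10.26, 10.38 and 9.94 in rest of brain and 11.80, 11.85 and 11.22 in adult fragments. The embryonic groups overlapped (0.09, interval -0.34 to 0.52, adjusted p = 0.713), and adults were higher than embryonic fragments by 1.34 ± 0.19 (2.53-fold, adjusted p = 3.64e-04). Foxn3, a repressor tied to a cell cycle checkpoint, read 11.10, 11.26 and 11.06 in embryonic fragments, 10.94, 10.89 and 10.94 in rest of brain and 12.11, 12.08 and 11.68 in adult fragments. Adults stood above by 0.82 ± 0.13 (adjusted p = 8.71e-04). Its embryonic arrays did not overlap, but the difference of 0.22 missed the threshold (interval -0.09 to 0.53, adjusted p = 0.181), and it passed with array weights (adjusted p = 0.0494) or as the mean over its probe sets (0.30, adjusted p = 0.0126).

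Foxm1 lay at the edge of detection. It read 3.96, 4.02 and 4.11 in embryonic fragments, 3.93, 3.91 and 4.11 in rest of brain and 3.36, 3.36 and 3.23 in adult fragments. Embryonic groups overlapped around the background line and adults were under it. The fitted fall of 0.71 with age (SE 0.10, adjusted p = 4.57e-04) therefore rests on values at background, and with a floor of 4 it was -0.04 (adjusted p = 0.733). Foxa1, a factor of endoderm and of dopamine neurons, read 4.72, 3.88 and 3.93 in rest of brain and 2.30 to 2.32 over the fragment arrays, and was not tested. The 14 genes not detected lay between 1.34 and 2.98 on every array: Foxa2 and Foxa3 of liver and endoderm, Foxb1, Foxb2, Foxd2, Foxd3 of neural crest, Foxd4, Foxe3 of the lens, Foxh1, a partner of Smad proteins, Foxi1 of the inner ear and kidney, Foxl1, Foxn1 of the thymus, Foxn4 of the retina, and Foxp3.

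Probe sets of one gene did not always move together. Tested as rows of their own among 20636 probe sets, a choice made after seeing the data, 39 probe sets of forkhead genes passed the filter, and 7 genes had more than 1. Foxp1 had 7. Between adult and embryonic fragments 3 of these were higher, by 1.33, 1.42 and 1.61, 1 was lower, by 1.59 on the log2 scale, and 3 were not called, against 24.4% higher and 31.5% lower of all probe sets (55.9% in either direction). The discordant Foxp1 probe set read 9.88, 9.03 and 8.39 in embryonic fragments, 3.94, 4.18 and 4.44 in rest of brain and 7.51 ± 0.51 (SD, n = 3) in adult fragments. It was the Foxp1 probe set with the widest contrast to rest of brain, at 4.91 ± 0.38 in embryonic fragments (adjusted p = 5.33e-06), and its fall with age had an adjusted p of 0.00737. Between embryonic fragments and rest of brain 5 of the 7 were higher and 2 not called (29.5% higher and 34.4% lower of all, 63.8% together), and all 7 were higher in adult fragments than in rest of brain (31.3% and 41.8% of all, 73.1% together).

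Foxn3 had 4 tested probe sets, of which 3 rose with age and 1, a dimmer one, fell (-0.54 ± 0.16, adjusted p = 0.0216). Of 3 for Foxo1, 1 fell with age (-0.51 ± 0.18, adjusted p = 0.0417) and 2 were not called, the representative one at 0.30 among them. Both probe sets of Foxo3 rose with age, and all 4 of Foxp2 were lower in embryonic fragments than in rest of brain. For Foxp1 and Foxn3 the called probe sets thus went in both directions with age, and RefSeq places windows for several starts of Foxp1 (3 in the table used). Whether probe sets read different transcripts was not tested.

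**Figure D3:**
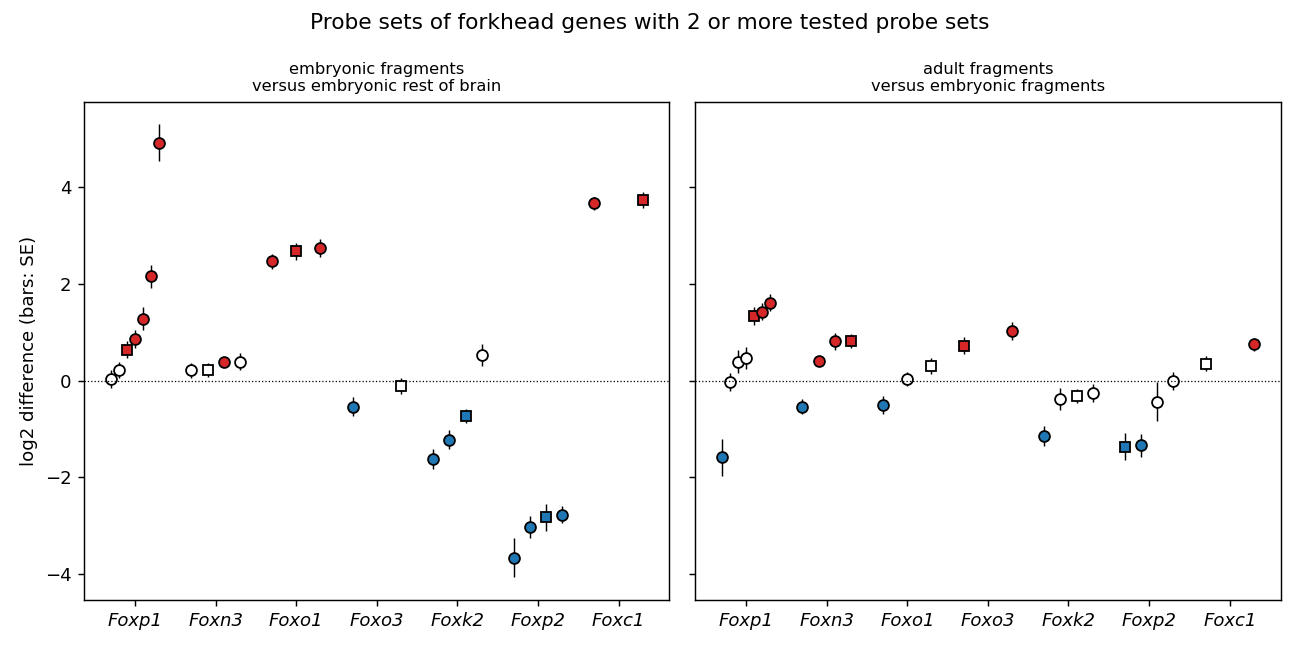
Log2 difference of each tested probe set of the 7 forkhead genes that have more than 1, in embryonic fragments over rest of brain (left) and adult over embryonic fragments (right); bars are standard errors, squares mark the probe set that represents the gene, and red, blue and white stand for higher, lower and not called. In the right panel Foxp1, Foxn3 and Foxo1 have a blue point on the other side of 0 from their square, which for Foxo1 was not called.

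Genes around the FoxO factors moved in both directions. Of 23 tested upstream regulators, 4 were higher and 10 lower in embryonic fragments than in rest of brain (17.4% and 43.5%, against 28.9% and 37.2% of all genes), with a median difference of -0.30 against -0.10 over all genes. Irs2, an adaptor of insulin receptors, was at least 4.29-fold lower, its relative Irs1 fell by 2.84 (adjusted p = 6.04e-06), and Sgk1, a kinase that phosphorylates FoxO proteins as Akt does, was higher by 2.65 ± 0.10. With age 5 were higher and 6 lower (21.7% and 26.1%, against 27.4% and 29.7% of all genes; median -0.17 against -0.02), among them Skp2, a ubiquitin ligase subunit (-2.44 ± 0.15), and Akt1 (-1.04 ± 0.12), against Sirt1, a deacetylase (1.47 ± 0.14). Against rest of brain, adult fragments had 7 higher and 11 lower (30.4% and 47.8%, against 33.1% and 42.9% of all genes), again led by Irs2 and Irs1 (-3.19 and -3.02) and by Sgk1 (3.72).

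Textbook targets of FoxO were higher in 16 and lower in 9 of 36 cases in embryonic fragments (44.4% and 25.0%, against 28.9% and 37.2% of all genes), with a median of 0.25 against -0.10 over all genes. The list was not split by whether FoxO factors raise or lower a gene, so these counts give no direction of FoxO activity. Nos3, endothelial nitric oxide synthase, was higher by 8.35 ± 0.38, with 1 rest of brain array under 4, Klf2, a factor induced by blood flow, by 6.74 ± 0.19, and Ppargc1a, a coactivator of mitochondrial genes, fell by 4.31. With age 16 were higher and 9 lower again (27.4% and 29.7% of all genes; median 0.29 against -0.02), with Fbxo32, a ubiquitin ligase of muscle wasting, up by 4.18 ± 0.24, Ppargc1a by 3.71 ± 0.27 and Igfbp1 at least 9.03-fold lower. The count of 9 lower became 15 with the mean over all probe sets. In adult fragments over rest of brain 19 were higher and 5 lower (52.8% and 13.9%, against 33.1% and 42.9% of all genes), led by Tnfsf10, at least 216-fold, and Nos3 (7.65), with Ccnd2 at -2.87. Endothelial markers were all higher in fragments of both ages (15 of 15), with a summed level of 186.7 to 190.5 in embryonic and 190.0 to 193.0 in adult fragments and 68.8 to 73.1 in rest of brain, where Pecam1, Tie1, Emcn, Robo4 and Icam2 were under 4. Their part in these counts was not tested.

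Targets of FoxM1 were mostly lower in adult than in embryonic fragments. Of 19 tested, 18 were lower in adult than in embryonic fragments and the other was not called, a share of 94.7% against 29.7% of all genes, with a median of -5.76. Top2a, a topoisomerase of dividing cells, fell by 8.13 and Cdk1, the kinase that starts mitosis, by 7.66, both under 4 on 2 of 3 adult arrays. Without probe sets open to shared probes 13 were lower, and Top2a fell by 1.60. That setting dropped every probe set with a letter suffix, also types whose probes are shared only among transcripts of the same gene. A dimmer probe set of the gene took its place where there was one. Its counts therefore do not show that the main calls rest on probes shared with other genes. In embryonic fragments over rest of brain 2 were higher and 2 lower (10.5% each, against 28.9% and 37.2% of all genes), with Cdk1 at 0.97 ± 0.28, Birc5 at 0.49 ± 0.15 and Cdc25b at -1.13 ± 0.19. Those small counts ranged from 1 to 4 and 1 to 5 over the alternatives and moved on leaving out any embryonic array or adult fragments replicate 1, and Cdk1 lost its call without rest of brain replicate 3 and Birc5 without embryonic fragments replicate 3 (adjusted p = 0.0527 and 0.0552). Adult fragments against rest of brain also had 18 lower (94.7%, against 42.9% of all genes; median -5.62), led by Top2a (-8.28) and Cenpf, at least 88.2-fold, but 11 without probe sets open to shared probes, where Top2a was at 0.04. Foxm1 itself lay at the edge of detection, and its part in these counts was not tested.

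General proliferation genes, a list without members in common with the FoxM1 targets, fell with age in 16 of 18 cases and rose in 1 (88.9% and 5.56%, against 29.7% and 27.4% of all genes; median -2.84). Mki67 fell by 7.59, Tpx2 was at least 41.6-fold lower, and Bub3 was higher by 0.32 ± 0.09, a call lost without embryonic fragments replicate 3 (adjusted p = 0.0519) and with the replicate block (adjusted p = 0.0647). In embryonic fragments over rest of brain 3 were higher and 4 lower (16.7% and 22.2%, against 28.9% and 37.2% of all genes), with Mcm7 at -1.03, Kif11 at -0.89 (not called without probe sets open to shared probes, adjusted p = 0.0786) and Ccne2 at 0.92. The lower count was 2 without rest of brain replicate 1. The higher count was 6 when the 2 groups were fitted alone, and 5 when the replicate block was added to that fit. Adult fragments against rest of brain again had 16 lower and 1 higher (42.9% and 33.1% of all genes), with Rrm2 at -8.11, Tpx2 at least 49.3-fold lower and Bub3 at 0.43.

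**Figure D4:**
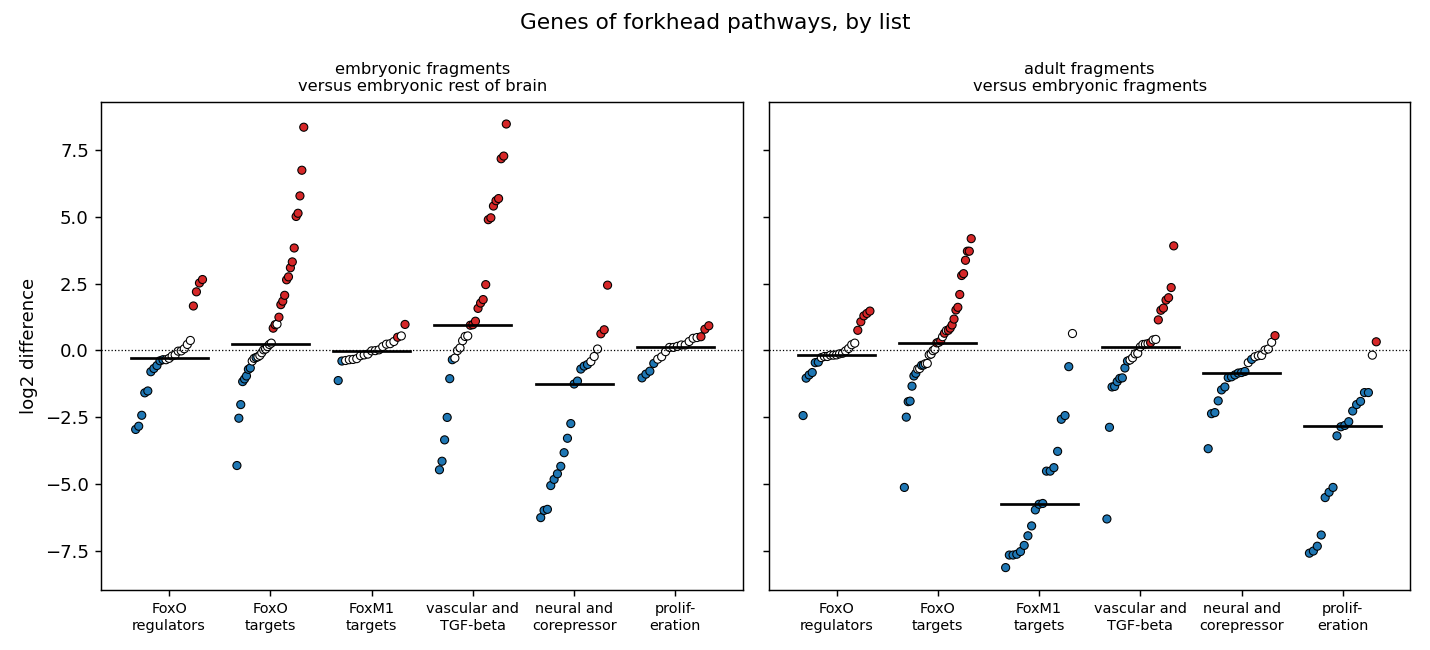
Log2 difference of every tested gene of 6 lists (1 point per gene, sorted within a list; black lines are medians) in embryonic fragments over rest of brain (left) and adult over embryonic fragments (right); red, blue and white stand for higher, lower and not called at an adjusted p under 0.05. FoxM1 targets have a median of -0.02 on the left and -5.76 on the right.

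Vascular and TGF-beta genes tied to FoxC and FoxF factors were higher in 15 of 27 cases and lower in 6 in embryonic fragments (55.6% and 22.2%, against 28.9% and 37.2% of all genes; median 0.96). Of this list Kdr is also an endothelial, Pdgfrb a pericyte and Pdgfra a fibroblast marker. All 15 endothelial markers were higher in embryonic fragments than in rest of brain, and the part of endothelial cells in these counts was not tested. Flt4, which binds VEGF-C, was up at least 163-fold and Tbx1, a T-box factor, at least 27.8-fold higher, while Itgb8, an integrin that activates TGF-beta, fell by 4.47. With age 8 were higher and 9 lower (29.6% and 33.3%, near the 27.4% and 29.7% of all genes; median 0.13): Cxcr4, a chemokine receptor, fell by 6.31 and Tgfb1 by 2.88, and Itgb8 was higher by 3.91 ± 0.36. In adult fragments over rest of brain 18 were higher and 7 lower (66.7% and 25.9%, against 33.1% and 42.9% of all genes), with Tbx1 and Flt4 at least 78.5-fold and 103-fold higher and Cxcr4 at -5.77; Cxcr4 lay under 4 on 2 of 3 adult arrays. Astrocyte markers came up with age in 7 of 9 cases and fell in 2, with a summed level of 64.5 to 75.7 in embryonic and 89.8 to 96.5 in adult fragments; Gfap was under 4 on every embryonic fragment array. Their part was not tested.

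Neural genes and corepressors tied to FoxP and FoxG factors were lower in embryonic fragments in 15 of 21 cases and higher in 3 (71.4% and 14.3%, against 37.2% and 28.9% of all genes; median -1.26). Tbr1 and Lhx2, factors of cortical neurons and progenitors, fell by 6.26 and 5.99, and Hes1, a target of Notch, was higher by 2.44 ± 0.18. With age 13 were lower and 1 higher (61.9% and 4.76%, against 29.7% and 27.4% of all genes; median -0.83). Bcl11b, a factor of deep-layer neurons, fell by 3.68 (under 4 on 1 of 3 adult arrays) and Hes5 by 2.37, and the corepressor Ctbp2 was higher by 0.55 ± 0.20. Hes5 lost its call without probe sets open to shared probes (-0.47, adjusted p = 0.218), and Ctbp2 lost it in 8 settings, among them without embryonic fragments replicate 2 or 3, rest of brain replicate 1 or 2, or adult fragments replicate 1 or 2 (adjusted p = 0.0555 to 0.137). In adult fragments over rest of brain 17 were lower and 2 higher (81.0% and 9.52%, against 42.9% and 33.1% of all genes), with Bcl11b at -9.63, Tbr1 at least 259-fold lower and Hes1 at 2.74. Of this list Emx2, Hes5 and Lhx2 are also progenitor markers, of which 10 of 11 were lower in embryonic fragments than in rest of brain.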

How the data were processed

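Per the submitters' processing notes, the authors used R 2.4.1 and GCRMA 2.6.0. Their deposited values, 1 for each probe set on each array, were taken as log2 from their range, and no further upstream step is known from the labels. The platform annotation named 1 gene for 34958 of 45101 probe sets, and each gene was represented by its probe set of highest mean over the 9 arrays. Genes with 4 or more on at least 3 arrays (12009) entered limma 3.58.1 (R 4.3.3), all 9 arrays in 1 fit with group as the factor, 2-sided, with Benjamini-Hochberg adjustment over the 12009 genes and a threshold of 0.05; the total degrees of freedom were 8.43. The script was tested on simulated data. The labels share replicate numbers between groups. Arrays of embryonic fragments and rest of brain with the same number deviated together from their group means across the tested genes (r = 0.194, 0.199 and 0.217). With different numbers r was -0.209 to -0.021. Differently numbered adult and embryonic fragment arrays reached 0.208, so an r of this size cannot settle whether the numbers pair samples. Adult and embryonic arrays come from mice of different age and strain. A group under 4 on all 3 arrays counts as at background, and "at least" folds are set against 4. In each pathway list the members named are, per comparison, the 2 called ones with the largest differences in the commoner direction and the largest in the other. The alternatives were the filter, normalization, low values, probe sets, variance model, array weights, the groups fitted, the replicate block and leaving out each array. Promoter windows came from RefSeq on GRCm38.p6. The forkhead genes and gene lists were chosen with earlier results of these data known. Scan dates were not analysed here, and the number of arrays limits the precision.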

Additional observations from a re-analysis of the deposited data

How the results depend on the processing

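Over the 23 alternatives run for each comparison, the counts of forkhead genes higher and lower stayed within 1.5 times except with a filter of 5 on at least 3 arrays, which tests fewer genes and left 3 lower in embryonic fragments against rest of brain and 2 lower in adult fragments against rest of brain (5 each as reported). Leaving out 1 array gave 9 to 9 higher and 4 to 5 lower for embryonic fragments against rest of brain, 8 to 11 and 4 to 5 for adult against embryonic fragments, and 14 to 14 and 5 to 5 for adult fragments against rest of brain, with 7305 to 8351, 6106 to 6983 and 8584 to 9214 of all genes called. With the replicate block, the 2 groups fitted alone, the forkhead counts were 9 and 5, 9 and 4, and 14 and 5, and no forkhead call changed. The same fit called 8333, 5754 and 8818 of all genes, against 7939, 6854 and 9132. Same-numbered adult and embryonic fragment arrays had r of 0.033, -0.083 and 0.214, and differently numbered ones -0.21 to 0.208. Reversals concerned differences that were not called, apart from Top2a. Foxn2 turned to -0.04 without rest of brain replicate 3 in the embryonic comparison (-0.04 to 0.18 on leaving out 1 array). Between the ages Foxc2 turned to 0.04 without adult fragments replicate 3 (-0.39 to 0.04), Foxk1 to 0.10 with cyclic loess, 0.01 with array weights and 0.07 without embryonic fragments replicate 1 (-0.09 to 0.07), and Foxo1 to -0.05 with the mean over its probe sets. Top2a in adult fragments against rest of brain turned to 0.04 without probe sets open to shared probes. For adult fragments against rest of brain, Foxj3 (-0.23, adjusted p = 0.0650) passed with no filter, a variance trend or the mean over its probe sets (adjusted p = 0.0199 to 0.0322), and Foxm1 lost its call with a floor of 4 (adjusted p = 0.719). The mean over all probe sets took 25 forkhead differences with a main size above 0.5 beyond a change of 1.5 times with the call kept, and a floor of 4 or an offset on low values did so for 4 and 8. For reversals and lost calls the cause was not tested.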
